A study of Mus musculus with 18 samples.

Results

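CMPF (3-carboxy-4-methyl-5-propyl-2-furanpropanoic acid), a furan derivative of dietary fatty acids found in plasma, was given to mice for 1 week before a high-fat diet, and the livers of these mice were compared with those of mice that received vehicle before the same diet. The comparison took the liver arrays titled as CMPF on high-fat diet and as control on high-fat diet, 3 of each, so it used 6 of the 18 arrays of the study. CMPF arrays 2 and 3 were nearly identical and were averaged and counted as 1 sample, which left 5 of 17 samples: 3 vehicle and 2 CMPF.

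All mice were wild-type CD1, an outbred stock. In the vehicle group they received vehicle for 1 week and then a diet with 60% of its energy from fat (HFD) for 4 weeks per the sample labels, given as 4 to 5 weeks in the series text. The CMPF group differed in receiving 6 mg/kg CMPF per day during that week, and a further control group stayed on chow. A second experiment, here called reversal, fed HFD for 6 weeks and then gave vehicle or the same daily dose of CMPF for 2 weeks. Sex, age and the number of animals behind each array are not given in the sources used here, so each p-value measures the spread between arrays, which may be technical. The comparison asks how the liver on HFD differed after CMPF was given beforehand.

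The liver answers a high-fat diet through several linked programs. Hepatocytes make fatty acids with Acaca and Fasn and desaturate them with Scd1, store them as triglyceride in lipid droplets, burn them in mitochondria and peroxisomes and export them in lipoproteins. They also secrete large amounts of plasma protein, which pass through the endoplasmic reticulum (ER). Load on its folding machinery is met by the unfolded protein response, through the sensors Ern1, Eif2ak3 and Atf6, and by the integrated stress response, in which translation of the factor Atf4 rises. Hormones made by the liver, such as Fgf21, report its state to other tissues.

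Values are log2 signals, so a difference of 1 is a 2-fold change, and each gene is given in the order vehicle arrays 1, 2 and 3, then CMPF array 1 and the mean of CMPF arrays 2 and 3. A difference is the CMPF mean minus the vehicle mean with its standard error (SE), 2 samples against 3. The SE and p pool the spread within all 6 groups of the 17 samples, so they rest also on chow and reversal arrays not compared here. Among the reversal arrays on chow, array 2 differed more than 2-fold from arrays 1 and 3 at 1120 and 850 genes. Arrays 1 and 3 of that group differed from each other at 132. Means of the 9 arrays of this experiment lay between 5.08 and 5.10. Of 13221 genes tested, 0 differed more than 2-fold between CMPF arrays 2 and 3, against 130 to 399 in the other pairs of the 6 arrays compared. The groups were not cleanly apart by this count. Vehicle array 3 differed from CMPF array 1 at 142 genes, fewer than from vehicle arrays 1 and 2 (363 and 212). Against CMPF arrays 2 and 3 it differed at 385 and 258. CMPF array 1 differed more than 2-fold from the mean of the other CMPF arrays at 127 genes. The hepatocyte genes Alb, Ttr, Apoa1, Apoa2 and Cyp2e1 stood between 13.86 and 14.54 in all 5 samples. As a sign of RNA quality, the 3' minus 5' signal of the Gapdh and beta-actin control probe sets, a measure that grows as RNA shortens, was 2.67, 2.67 and 3.19 on the vehicle arrays and 3.16 and 2.75 in the CMPF samples. The group difference of 0.111 had p = 0.6 by an exact two-sided permutation test, whose smallest possible p is 0.1. The chow arrays lay lower, between 0.968 and 1.98.

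No single gene passed in this comparison, and the pattern was one of many small differences that leaned upward. By limma with Benjamini-Hochberg adjustment, 0 of 13221 genes (0%) had an adjusted p under 0.05, and the smallest adjusted p was 0.188. An unadjusted p under 0.05 was found for 1060 genes (8.02%), where 661.1 are expected if no gene differed. Of these, 775 (5.86% of all genes) were higher with CMPF and 285 (2.16%) were lower. Below an unadjusted p of 0.001 there were 39 higher and 6 lower genes, against 13.22 expected. Both CMPF samples lay above all vehicle arrays at 2602 genes (19.7%) and below all of them at 1461 (11.1%), while 53.2% of all genes had a higher mean with CMPF. The median difference of all genes was 0.02 and the median SE was 0.18.

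The upward lean depended on how the arrays were scaled. Higher genes made up 73.11% of those with an unadjusted p under 0.05, 63.65% (625 higher, 357 lower) after another quantile normalization and 55.26% (515 and 417) after cyclic loess, a scaling that removes signal-dependent trends between arrays. Without the filter on low signals they made up 63.5%, and with the lowest 60% of probe sets dropped 82.36% (705 and 151). With 1 vehicle array left out in turn, 601 to 701 genes were higher and 248 to 416 lower. Fewer samples also widen the SE, so a change in these counts cannot be laid to the array left out alone.

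The genes with the smallest p are described as values, since none passed. Among the 10 upward genes, Capn7, a calpain protease, stood at 8.09, 8.10 and 8.17 on the vehicle arrays and at 8.76 and 8.93 in the CMPF samples, a difference of 0.72 ± 0.12 (adjusted p = 0.188). Sntb1, a syntrophin that links membrane proteins to dystrophin, stood at 8.22, 8.50 and 8.20 and at 9.06 and 9.35 (0.90 ± 0.15, adjusted p = 0.188). The vehicle arrays of both genes lay close together and the CMPF samples lay clear of them. Ccdc47, an ER membrane protein, had 9.59, 9.63 and 9.75 against 10.29 and 10.43 (0.70 ± 0.13, adjusted p = 0.214). Slc33a1, the acetyl-CoA transporter of the ER membrane, had 8.221, 7.995 and 8.146 against 8.89 and 9.21 (0.93 ± 0.18, adjusted p = 0.252). The largest of the 10 differences was that of Rpp40, a subunit of ribonuclease P, at 1.13 ± 0.23. The others were Efr3a (0.80), a plasma membrane anchor of a lipid kinase, Hspa4l (0.78), a chaperone of the Hsp110 family, Papss1 (0.74), which makes the sulfate donor PAPS, Ppip5k2 (0.70), an inositol pyrophosphate kinase, and Cars (0.66), the cysteinyl-tRNA synthetase, each with an adjusted p of 0.252. Groups did not overlap at any of the 10. On the chow arrays, which were not part of this comparison, the means of Capn7, Sntb1, Ccdc47, Slc33a1 and Rpp40 were 8.65, 9.11, 10.27, 8.88 and 7.35, above the vehicle HFD arrays in each case. These genes were picked with the same vehicle arrays, which favours genes low on them. A higher chow mean is therefore partly built in, and the values are only set side by side.

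Downward, the smallest p belonged to Tmem120a, a membrane protein first described at the nuclear envelope. Its signal was 9.93, 9.70 and 9.53 on the vehicle arrays and 8.66 and 8.72 in the CMPF samples, lower by 1.03 ± 0.16 (adjusted p = 0.188), with no overlap. It was the only gene to pass after another quantile normalization (adjusted p = 0.0387) and after cyclic loess (0.0300). Ttc39a stood at 6.67, 6.48 and 6.19 and at 5.21 and 5.50, lower by 1.09 ± 0.20 (adjusted p = 0.214). Nr4a1, an orphan nuclear receptor induced by acute stimuli, stood at 7.71, 7.34 and 7.50 and at 6.14 and 6.71 (-1.10 ± 0.29, adjusted p = 0.341). Both CMPF samples of these genes lay below all vehicle arrays, CMPF array 1 lowest. Acacb, described with the lipogenic enzymes, and Cenpm (-0.96), a centromere protein, Limd2 (-0.78), Wnt5b (-0.66), a Wnt ligand, Upk1a (-0.42), a uroplakin, Pbxip1 (-0.35) and Stxbp2 (-0.35), a syntaxin-binding protein, completed the 10, again without overlap.

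**Figure D1:**
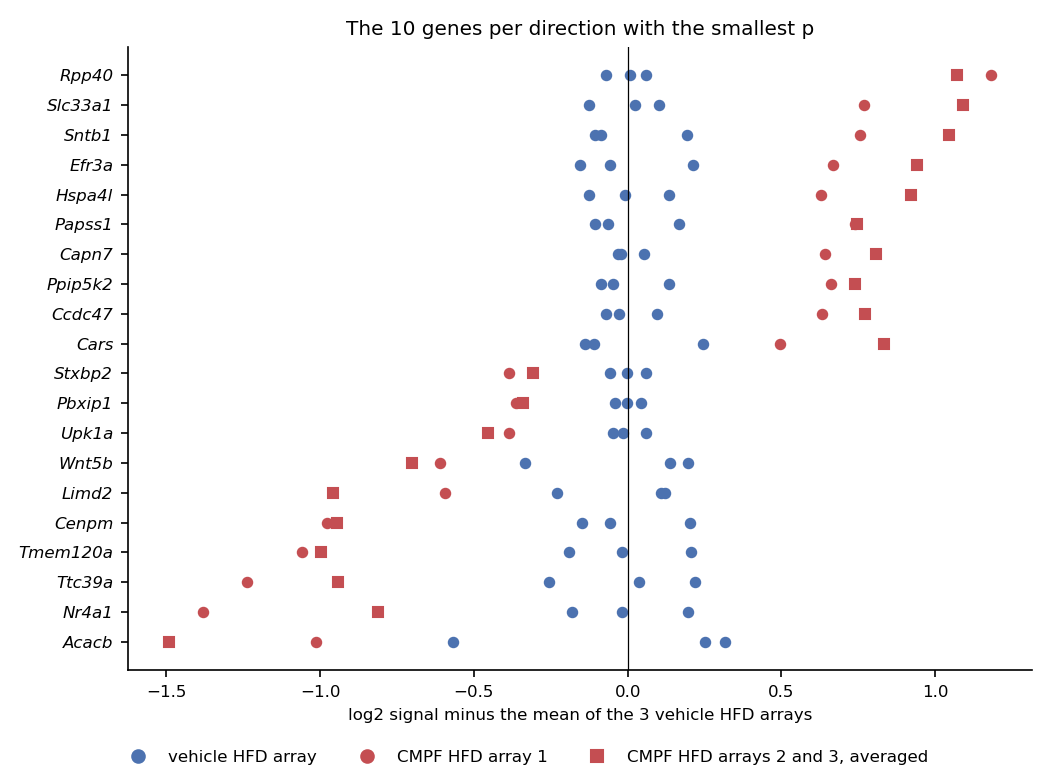
Log2 signal minus the mean of the 3 vehicle HFD arrays (horizontal axis) for the 10 genes per direction with the smallest p; blue points are vehicle arrays, the red point is CMPF array 1 and the red square the mean of CMPF arrays 2 and 3. The red symbols lie on 1 side of all 3 blue points for each of the genes, from 1.13 on average for Rpp40 to -1.25 for Acacb, while the adjusted p of each was 0.188 or more.

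Among genes with an unadjusted p under 0.05 and no overlap, those with the largest differences were spread more widely within the groups. Obp2a, an odorant-binding lipocalin, stood at 5.08, 7.11 and 5.55 on the vehicle arrays and at 7.12 and 10.01 in the CMPF samples, a difference of 2.65 ± 1.19 (adjusted p = 0.618). The CMPF samples lay almost 3 units apart, and CMPF array 1 exceeded the highest vehicle array by a small margin. The difference was 4.09 without CMPF array 1 and 1.20 without CMPF arrays 2 and 3. Pde5a, the cyclic GMP phosphodiesterase, had 3.51, 4.02 and 5.26 against 5.47 and 6.38 (1.66 ± 0.36, adjusted p = 0.252). It passed without vehicle array 3 (2.16, adjusted p = 0.00684), but its other probe set above the signal filter was at -0.23. Fam171b had 5.01, 6.46 and 4.59 against 7.46 and 7.17 (1.96 ± 0.85, adjusted p = 0.611), with vehicle array 2 high. In the other direction Nnmt, which methylates nicotinamide, had 6.80, 7.75 and 4.93 against 4.18 and 4.89 (-1.95 ± 0.80, adjusted p = 0.582). Vehicle array 3 of Nnmt lay near the CMPF samples and far below the other vehicle arrays. Lgals1, galectin-1, was lower by 1.28 ± 0.55 (adjusted p = 0.609) and showed the same low vehicle array 3, at 8.42 against 9.52 and 9.72.

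Hormones and other factors secreted by the liver included Angptl8 and Fgf21, with upward differences of 2.09 and 2.04. Of 21 hepatokine genes tested, 13 had a higher mean with CMPF, 5 had an unadjusted p under 0.05 upward and 0 downward, beside 53.2%, 5.86% and 2.16% of all genes. Both CMPF samples lay above all vehicle arrays at 7 (33.3%) and below them at 2 (9.52%), beside 19.7% and 11.1% of all genes. The list's median was 0.10, beside 0.02 for all genes. Fgf21, the fasting and stress hormone that acts through the coreceptor Klb, stood at 4.73, 6.00 and 5.72 on the vehicle arrays and at 7.97 and 7.08 in the CMPF samples. Both CMPF samples lay above the highest vehicle array, and the difference was 2.04 ± 0.49, a 4.12-fold higher mean (adjusted p = 0.274). Without CMPF array 1 it was 1.60, and without CMPF arrays 2 and 3 it was 2.49. Angptl8, an inhibitor of lipoprotein lipase that feeding induces, stood at 6.92, 6.62 and 8.21 and at 9.63 and 9.04, higher by 2.09 ± 0.53 or 4.25-fold (adjusted p = 0.327). Vehicle array 3 was the highest of its group and still below both CMPF samples.

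Inhbc, a subunit of the activin family made mainly in liver, had 6.14, 6.62 and 6.84 against 7.49 and 7.49 (0.96 ± 0.21, adjusted p = 0.252). Igfbp2, a binding protein for insulin-like growth factors, had 10.89, 9.47 and 11.19 against 12.10 and 11.64 (1.35 ± 0.48, adjusted p = 0.497). The low value of Igfbp2 on vehicle array 2 carried part of its difference, which was 0.83 without that array. Dpp4, the peptidase that inactivates incretins, was higher by 0.37 ± 0.16 with overlapping groups. Lect2 (-0.30) and Angptl6 (-0.09) lay below all vehicle arrays at both CMPF samples, whereas Angptl4 (-0.09), Igf1 (0.05), Igfbp1 (-0.15) and Selenop (-0.03) overlapped. Of the receptors for Fgf21, the coreceptor Klb was at 6.82, 6.88 and 6.84 and 7.15 and 7.18, higher by 0.32 ± 0.20 (adjusted p = 0.756), with both CMPF samples above. Fgfr4 (0.13), Fgfr3 (-0.12), Fgfr2 (0.11) and Fgfr1 (-0.05) overlapped.

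**Figure D2:**
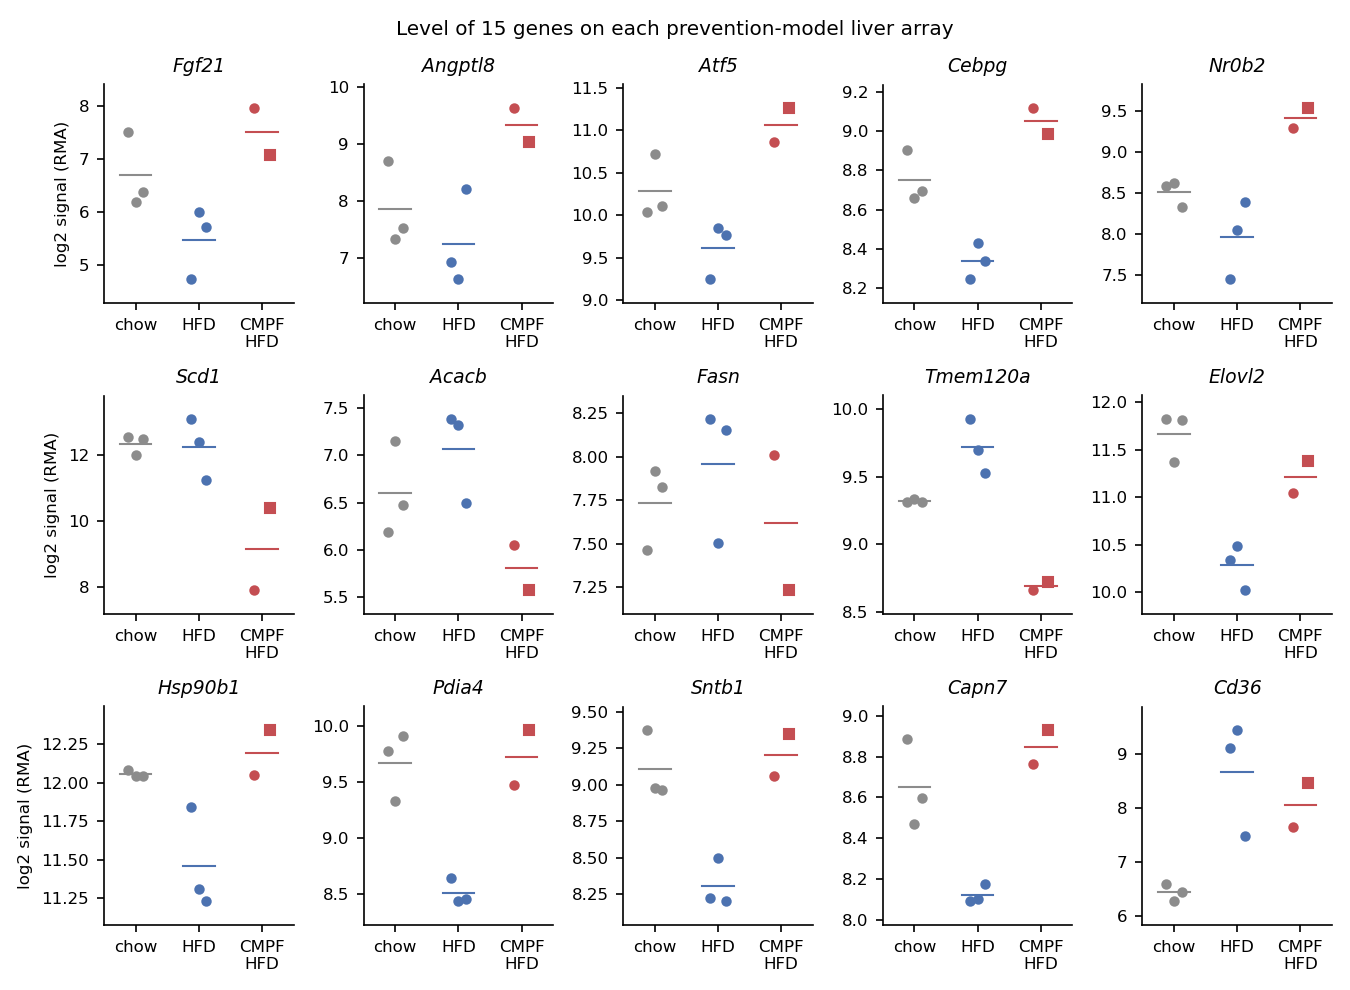
Log2 signal (vertical axes, scaled per gene and not starting at 0) of 15 genes on each array of the experiment; grey is chow, blue vehicle on HFD and red CMPF on HFD, where the square is the mean of CMPF arrays 2 and 3, and the bars are group means. Both red symbols lie above all blue points for Fgf21, Angptl8, Atf5, Cebpg, Nr0b2, Elovl2, Hsp90b1, Pdia4, Sntb1 and Capn7 and below them for Scd1, Acacb and Tmem120a, while Fasn and Cd36 overlap.

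Fgf21 is also a target of the integrated stress response, whose transcription factors bind an amino acid response element. Among its 30 tested genes, 24 had a higher mean with CMPF, 5 had an unadjusted p under 0.05 upward and 0 downward, and at 12 (40% of them, beside 19.7% of all genes) both CMPF samples lay above the vehicle arrays. Of all genes, 53.2% had a higher mean, and 5.86% and 2.16% had an unadjusted p under 0.05 upward and downward. The list's median was 0.20, and in single samples it was -0.02, 0.03 and 0.02 for vehicle and 0.22 and 0.17 for CMPF. Atf5, a transcription factor of this response, stood at 9.24, 9.84 and 9.77 and at 10.86 and 11.26, higher by 1.44 ± 0.33 (adjusted p = 0.252). Cebpg, a dimer partner of Atf4, stood at 8.24, 8.43 and 8.34 and at 9.12 and 8.98, higher by 0.71 ± 0.17 (adjusted p = 0.286). Groups of both genes were well apart. Mthfd2, a mitochondrial folate enzyme, was higher by 0.40 ± 0.12. Trib3, a pseudokinase that restrains Akt, had 6.85, 6.72 and 6.64 against 8.07 and 6.90 (0.75 ± 0.33), and its difference was 0.16 without CMPF array 1, which alone was high. The response was not uniform: Atf4 (0.09), Ddit3 (0.29), Asns (0.36), Atf3 (-0.20), Slc7a5 (0.01) and Stc2 (-0.09) overlapped, and Vldlr (-0.88), Phgdh (-0.21) and Ddit4 (-0.29) lay below all vehicle arrays.

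In the RefSeq promoter table (mouse build GRCm38.p6), the 250 bases before each gene's start were searched on both strands for TGATGNAA, the core of the amino acid response element. It occurred in 3.45% of 32851 promoters, in 2.48% of 10625 tested genes with a promoter and in 6 of 27 genes of the integrated stress response: Asns, Atf3, Chac1, Fgf21, Nupr1 and Vldlr. These 6 differed widely, from -0.88 for Vldlr to 2.04 for Fgf21. The stretch of Fgf21 is shown because it is the member with the largest difference; it lies upstream of the gene at chr7:45615586-45615665 on the minus strand, with the match, read on the other strand, in capitals.
Fgf21: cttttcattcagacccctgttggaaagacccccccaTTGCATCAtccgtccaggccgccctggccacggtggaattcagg

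Genes of the unfolded protein response in the ER had the most uniform direction of the stress lists. All 25 had a higher mean with CMPF, 12 had an unadjusted p under 0.05 upward and 0 downward, and at 22 (88%) both CMPF samples lay above all vehicle arrays, beside 53.2%, 5.86%, 2.16% and 19.7% of all genes. None passed adjustment. Their median difference was 0.47. In single samples the median was 0.08, -0.03 and -0.09 for vehicle and 0.43 and 0.66 for CMPF, so the averaged CMPF arrays lay farther from the vehicle arrays than CMPF array 1. The 25 means were higher also under each scaling alternative, with a median of 0.39 after another quantile normalization and 0.36 after cyclic loess. With the probe set of largest interquartile range 24 were higher and Ern1 was at -0.05. The count of 12 was 8 without CMPF array 1 or without vehicle array 3, and 2 without CMPF arrays 2 and 3. The RNA index was higher by 0.111 in the CMPF samples, and with it as a covariate 15 members had an unadjusted p under 0.05.

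Chaperones of the ER lumen lay among the larger differences. Hspa5 (BiP), the main Hsp70 of the ER, stood at 12.43, 12.03 and 12.10 and at 12.83 and 12.97, higher by 0.71 ± 0.26 (adjusted p = 0.509). Hsp90b1 (Grp94), its Hsp90, stood at 11.84, 11.31 and 11.23 and at 12.05 and 12.34, higher by 0.74 ± 0.19 (adjusted p = 0.344). Vehicle array 1 was the highest of its group for both, closest to the CMPF samples. Pdia4, a protein disulfide isomerase, had 8.65, 8.44 and 8.46 against 9.48 and 9.96 (1.21 ± 0.34, adjusted p = 0.378), and Pdia6, another isomerase, had 9.33, 9.46 and 8.98 against 9.93 and 10.60 (1.00 ± 0.35, adjusted p = 0.481). The vehicle arrays of Pdia4 were tight and the CMPF samples lay clear above them. Hyou1 (1.12 ± 0.43), which exchanges nucleotides on Hspa5, Manf (0.99 ± 0.35), a secreted stress factor, Dnajb11 (0.83 ± 0.31), an Hspa5 cochaperone, Sdf2l1 (1.32 ± 0.48) and Creld2 (1.50 ± 0.66) had an unadjusted p under 0.05 as well. The lectin chaperone Canx (0.36) did too, whereas Calr (0.32) and Pdia3 (0.78) did not.

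Of the sensors and factors, Atf6 stood at 7.25, 7.42 and 7.20 and at 7.71 and 7.95, higher by 0.54 ± 0.16 (adjusted p = 0.407), Xbp1 was higher by 0.40 ± 0.21 with no overlap, and Ern1, the kinase that splices Xbp1, by 0.38 ± 0.23 with overlap. The other probe sets of Ern1 above the signal filter were at -0.05 and -0.28. Among genes that retrieve and degrade misfolded proteins, Derl1 (0.36 ± 0.16) had an unadjusted p under 0.05, while Derl3 (1.05 ± 0.52), Herpud1 (0.40 ± 0.41), Edem1 (0.34 ± 0.27), Syvn1 (0.45 ± 0.46), Sel1l (0.22 ± 0.26) and Derl2 (0.32 ± 0.25) did not. Dnajc3 stood at 9.64, 9.69 and 9.62 and at 9.93 and 10.30; its groups were clear of each other here, but its SE of 0.96, which pools the spread of all 6 groups, exceeded its difference of 0.47.

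The ER stress response element bound by Atf6 with the factor NF-Y, which is CCAAT and CCACG with 9 bases of any kind between them, was sought in the same 250 bases on both strands. It occurred in 0.113% of 32851 promoters and in 17 of 10625 tested genes with a promoter, and 9 of those 17 are in the unfolded protein response list, where 21 genes had a promoter: Calr, Canx, Creld2, Derl3, Dnajc3, Hsp90b1, Hspa5, Pdia6 and Syvn1. A related element, ATTGG and CCACG with 1 base between them, occurred in 0.0304% of promoters and in Herpud1 within the list. The 8 other genes with the first element did not share the direction: 3 of the 8 were higher and their median was -0.02, with Ero1b, an ER oxidase, at 0.85 and Acacb at -1.25. A match is a stretch of letters and says nothing of binding. The following 80-base stretches, each read along the gene's strand with the element in capitals, are those of Hsp90b1, which has the smallest p of the list and holds the element in both orientations (chr10:86705608-86705687 and chr10:86705503-86705582, minus strand), Hspa5 (chr2:34771994-34772073, plus strand), Pdia6 (chr12:17266460-17266539, plus strand) and Creld2, the largest difference (chr15:88819489-88819568, plus strand).
Hsp90b1, first stretch: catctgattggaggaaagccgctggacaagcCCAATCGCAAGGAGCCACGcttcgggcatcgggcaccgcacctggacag
Hsp90b1, second stretch: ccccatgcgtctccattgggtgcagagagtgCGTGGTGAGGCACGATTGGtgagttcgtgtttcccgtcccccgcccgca
Hspa5: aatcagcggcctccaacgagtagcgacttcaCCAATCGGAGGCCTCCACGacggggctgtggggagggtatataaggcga
Pdia6: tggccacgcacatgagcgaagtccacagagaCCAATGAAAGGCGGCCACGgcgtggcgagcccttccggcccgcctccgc
Creld2: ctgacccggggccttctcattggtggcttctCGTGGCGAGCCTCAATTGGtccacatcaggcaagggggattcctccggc

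The machinery that moves proteins into the ER and on to the Golgi showed the same direction. Of 37 genes tested, 36 had a higher mean with CMPF, 13 had an unadjusted p under 0.05 upward and 0 downward, and at 27 (73.0%) both CMPF samples lay above the vehicle arrays. Of all genes, 53.2% had a higher mean, 5.86% and 2.16% had an unadjusted p under 0.05 upward and downward, and 19.7% lay above. The median was 0.38, with 0.01, 0.05 and -0.07 on the vehicle arrays and 0.31 and 0.47 in the CMPF samples. The count of 13 was 8 without vehicle array 3 and 6 without CMPF arrays 2 and 3, and 33 of the 37 were higher after cyclic loess. The COPI coat subunit Copa stood at 9.26, 9.36 and 9.20 and at 9.78 and 9.94, higher by 0.58 ± 0.13 (adjusted p = 0.252). Its other probe set above the signal filter was at 0.06. Ssr3, of the translocon-associated complex, stood at 9.60, 9.78 and 9.55 and at 10.36 and 10.58, higher by 0.83 ± 0.21 (adjusted p = 0.327). Both groups of these genes were compact. The COPII coat was represented by Sec24d (0.97 ± 0.30), Sec23b (0.64 ± 0.27), Sec24a (0.56 ± 0.20) and Sec31a (0.41 ± 0.14). Another probe set of Sec24a was at -0.13. Ddost (0.47 ± 0.12), of the oligosaccharyltransferase that glycosylates nascent proteins, the cargo receptor Lman1 (0.66 ± 0.19), the signal recognition particle protein Srp9 (0.47 ± 0.16), the signal peptidase subunits Spcs3 (0.56 ± 0.24) and Sec11c (0.61 ± 0.25, with another probe set at -0.23), the translocon protein Ssr1 (0.33 ± 0.15) and the COPI subunit Copg1 (0.48 ± 0.22) also had an unadjusted p under 0.05. Sec62, a translocation factor, was the member with a lower mean (-0.08).

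**Figure D3:**
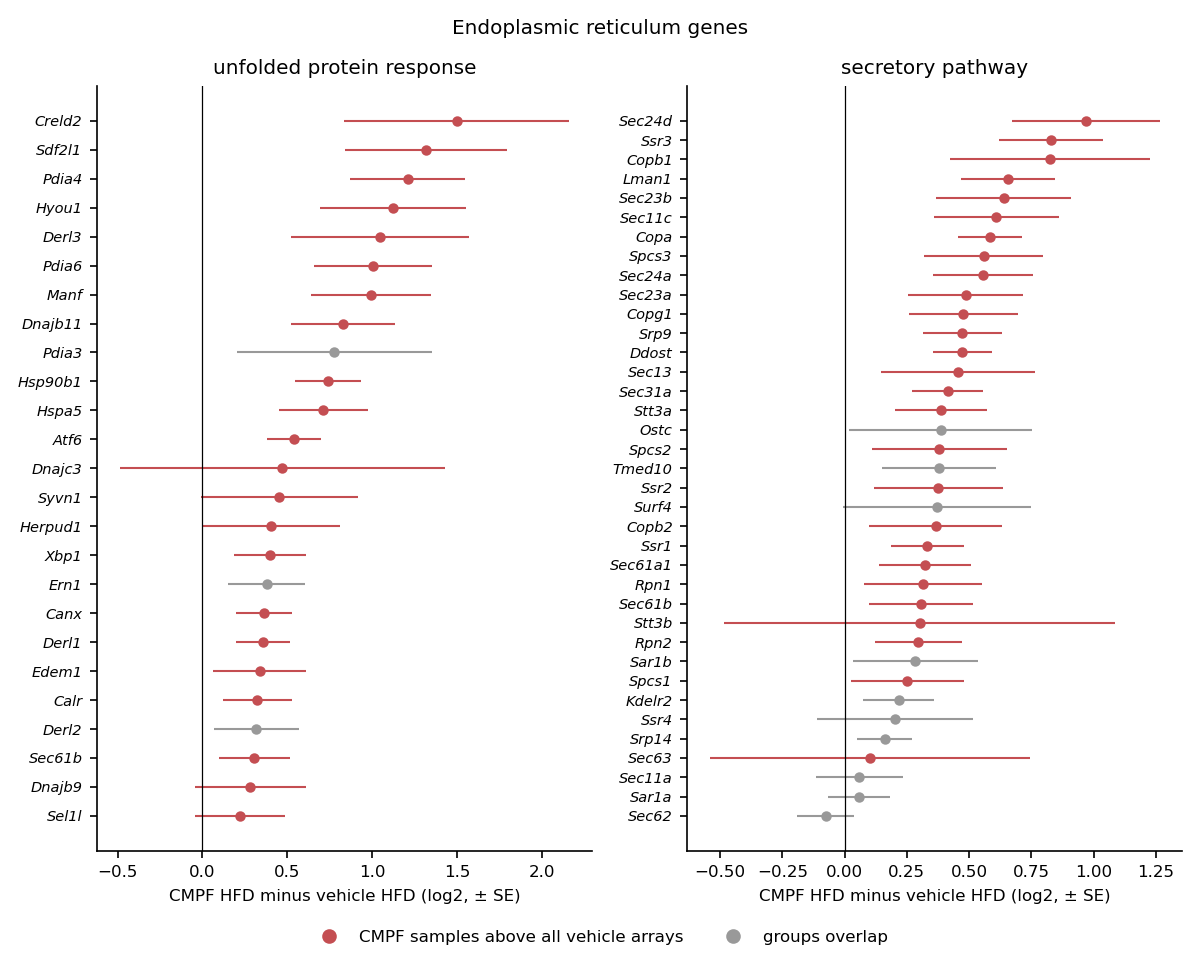
Difference between CMPF and vehicle on HFD (log2, horizontal axis, with its SE as bars) for the 25 genes of the unfolded protein response (left) and the 37 of the secretory pathway (right); red marks genes at which both CMPF samples lay above all vehicle arrays and grey those with overlap. All 25 points on the left and 36 of 37 on the right lie above 0, and bars of several genes, such as Dnajc3, reach below it.

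Both ER lists stood lower on vehicle HFD than on chow. That comparison shares the vehicle HFD arrays with the present one, so the values are only set side by side. The median of HFD minus chow was -0.51 for the unfolded protein response and -0.54 for the secretory pathway, against 0.47 and 0.38 for CMPF minus vehicle. By adjusted p, 4 of 25 and 14 of 37 of these genes were lower on HFD than on chow, beside 3.83% of all genes. The RNA index was also higher on HFD than on chow, as given above, and its part in the values against chow was not tested. In the cytosol and mitochondria, 13 of 16 heat shock genes had a higher mean with CMPF and 5 had an unadjusted p under 0.05 upward, beside 53.2% and 5.86% of all genes, with a median of 0.25. Besides Hspa4l these were the Hsp90 activator Ahsa1 (0.53 ± 0.20), the mitochondrial chaperonin Hspe1 (0.39 ± 0.15), Hspb1 (0.69 ± 0.29) and Stip1 (0.40 ± 0.18), while Hspa1a, an inducible Hsp70, was at -0.44 with overlap. The 5 became 3 without CMPF array 1, 1 without CMPF arrays 2 and 3 and 2 after cyclic loess. Of 26 proteasome and ubiquitin genes, 22 had a higher mean with CMPF, 1 had an unadjusted p under 0.05 (Psmc6, 0.51 ± 0.20), and the median of 0.14 was 0.03 after cyclic loess. Of 25 autophagy and lysosome genes, 17 were higher, with a median of 0.06; Ulk2, a kinase that starts autophagy, was at 0.66 ± 0.29.

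Fatty acid synthesis was represented by 18 enzymes and 15 regulators. For comparison, 53.2% of all genes had a higher mean with CMPF, and 5.86% and 2.16% had an unadjusted p under 0.05 upward and downward. Of the enzymes, 4 had a higher and 14 a lower mean with CMPF, 2 had an unadjusted p under 0.05 downward and 0 upward, and at 4 (22.2%, beside 11.1% of all genes) both CMPF samples lay below the vehicle arrays. Their median was -0.21; in single samples it was 0.28, -0.02 and -0.19 for vehicle and -0.21 and -0.20 for CMPF, so vehicle array 3 lay level with the CMPF samples. Scd1, the stearoyl-CoA desaturase, stood at 13.08, 12.40 and 11.23 on the vehicle arrays and at 7.91 and 10.41 in the CMPF samples. The samples of each group were far apart, yet both CMPF samples lay below the lowest vehicle array, and the mean was lower by 3.08 ± 0.92 or 8.46-fold (adjusted p = 0.409). It was lower by 1.83 without CMPF array 1 and by 4.33 without CMPF arrays 2 and 3, and its second probe set was at -1.44. Acacb, the mitochondrial acetyl-CoA carboxylase whose product blocks Cpt1, stood at 7.38, 7.31 and 6.50 and at 6.05 and 5.57, lower by 1.25 ± 0.34 (adjusted p = 0.359). Vehicle array 3 was closest to the CMPF samples for Scd1 and for Acacb.

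Fasn, the fatty acid synthase, stood at 8.22, 7.50 and 8.16 and at 8.01 and 7.23, with overlap and a difference of -0.34 ± 0.29 (adjusted p = 0.832). Acaca, the cytosolic carboxylase, stood at 8.35, 7.92 and 8.27 and at 8.19 and 7.85 (-0.16 ± 0.15, adjusted p = 0.852). CMPF array 1 lay within the vehicle range for both, and without CMPF arrays 2 and 3 the differences were 0.05 and 0.01. Thrsp, a lipogenic activator (-0.73 ± 0.44), and Acss2 (-0.42), which activates acetate, lay below all vehicle arrays, and Mid1ip1 (0.60), a partner of Acaca, lay above them. Acly (-0.18), Elovl1 (-0.54), Elovl5 (0.04), Elovl6 (0.05) and Me1 (0.25) overlapped. Among the regulators, none of 15 had an unadjusted p under 0.05 and the median was 0.05, or -0.03 after another quantile normalization and -0.06 after cyclic loess. Srebf1, the main lipogenic factor, stood at 9.15, 8.81 and 9.69 and at 9.27 and 9.70 (0.27 ± 0.37, adjusted p = 0.917), the carbohydrate-responsive Mlxipl was at 0.05 and the oxysterol receptor Nr1h3 at -0.24 ± 0.14.

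Pparg, the receptor that promotes fat storage, stood at 5.99, 5.95 and 5.85 and at 6.02 and 6.50, higher by 0.33 ± 0.20 (adjusted p = 0.74) with the CMPF samples just above. Cd36, the fatty acid translocase, stood at 9.11, 9.45 and 7.48 and at 7.64 and 8.47, with overlap and a difference of -0.62 ± 0.57 (adjusted p = 0.843). As background to the counts that follow, 53.2% of all genes had a higher mean with CMPF and 2.16% had an unadjusted p under 0.05 downward. Of 13 genes of triglyceride synthesis 10 had a lower mean with CMPF, 1 had an unadjusted p under 0.05, and the median was -0.16. That gene was Mogat1, the monoacylglycerol acyltransferase, at 6.51, 6.56 and 5.61 and 5.26 and 5.79 (-0.70 ± 0.32, adjusted p = 0.621), whose groups overlapped because vehicle array 3 was low. Lpin1 (-0.68), Lpin3 (-0.33), Gpat4 (-0.31) and Dgat2 (-0.16) lay below all vehicle arrays, 4 of the 13, beside 11.1% of all genes. Of 18 lipid droplet and lipolysis genes 12 had a lower mean, none had an unadjusted p under 0.05, and the median was -0.17; Plin2, the main droplet coat, was at -0.23 ± 0.17, Hsd17b13 at 0.77 and Cidec at -0.40. Of 17 genes of fatty acid uptake and binding, Slc27a4, a fatty acid transporter, had an unadjusted p under 0.05 (-0.40 ± 0.17), and the median was -0.07. The liver transporter and bile acid ligase Slc27a5 was at -0.35 ± 0.20, below all vehicle arrays.

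Genes of fatty acid oxidation differed little as lists. The medians were 0.01 for 21 mitochondrial and 0.05 for 18 peroxisomal genes, and both were negative after cyclic loess (-0.09 and -0.05). Cpt1a, which admits fatty acids into mitochondria, stood at 10.29, 10.74 and 10.40 and at 10.58 and 10.61 (0.11 ± 0.16, adjusted p = 0.916). The receptor Ppara stood at 10.17, 10.52 and 10.83 and at 10.41 and 10.34 (-0.13 ± 0.24, adjusted p = 0.935), and 2 of its 3 probe sets had the opposite sign. Neither gene separated the groups. Single enzymes did, as did 19.7% of all genes above the vehicle arrays and 11.1% below them. In the mitochondrial list 6 lay above and 3 below, and in the peroxisomal list 7 and 5. Above were Hadhb (0.37 ± 0.22, with another probe set at -0.20), Acadl (0.44 ± 0.29) and Etfa (0.48 ± 0.28). Peroxisomal genes above were Crot (0.62 ± 0.28, with another probe set at -0.06), Hsd17b4 (0.31 ± 0.13) and Cat (0.20 ± 0.10). Below were Acot2 (-0.38 ± 0.27, with another probe set at 0.15) and the peroxisomal acyl-CoA thioesterase Acot3 (-0.99). Of 15 targets of Ppara, Fgf21 had an unadjusted p under 0.05 and the median was 0.11, or -0.15 without CMPF array 1; Pdk4 was at -0.49 and Ehhadh at 0.48 ± 0.33.

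The 4 ketogenesis genes tested had a higher mean with CMPF, with a median of 0.44 (0.03, 0.08 and -0.13 on the vehicle arrays and 0.52 and 0.38 in the CMPF samples). Slc16a1, the monocarboxylate transporter that carries ketone bodies and lactate, stood at 8.24, 8.37 and 8.14 and at 9.05 and 9.09, higher by 0.82 ± 0.21 (adjusted p = 0.327). Bdh1, which makes hydroxybutyrate, was higher by 0.50 ± 0.28 and Acat1, the thiolase, by 0.37 ± 0.29. These 3 genes did not overlap, while the ketone body exporter Slc16a6 did (0.18 ± 0.34) and was at -0.15 without CMPF array 1. For comparison, 53.2% of all genes had a higher mean with CMPF, and at 19.7% both CMPF samples lay above the vehicle arrays. The 33 subunits of the respiratory chain had a median of 0.01 and none had an unadjusted p under 0.05.

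Polyunsaturated fatty acids and their oxylipins were covered by 24 genes, with a median of 0.15. Of these, 16 had a higher mean with CMPF, and 2 had an unadjusted p under 0.05 upward and 1 downward. The shares over all genes were 53.2%, 5.86% and 2.16%. Elovl2, which elongates them toward docosahexaenoic acid, stood at 10.34, 10.49 and 10.02 and at 11.04 and 11.38, higher by 0.93 ± 0.20 (adjusted p = 0.252). The groups lay well apart. Ephx2, the epoxide hydrolase, was higher by 0.33 ± 0.12, and the epoxygenase Cyp2c39 was lower by 0.68 ± 0.31 with overlap. The desaturase Fads1 was at -0.36 with overlap. Of 18 genes of cholesterol synthesis and uptake 3 had a higher and 15 a lower mean, yet the 2 CMPF samples disagreed. The list's median was 0.23 for CMPF array 1 and -0.91 for arrays 2 and 3, against 0.26, -0.44 and 0.19 on the vehicle arrays. Without CMPF arrays 2 and 3 the median turned from -0.29 to 0.23. Tm7sf2, a sterol reductase, stood at 9.64, 9.27 and 9.60 and at 9.03 and 8.35, lower by 0.81 ± 0.22 (adjusted p = 0.359) without overlap, and by 0.47 without CMPF arrays 2 and 3. Sqle (-0.71), Hmgcs1 (-0.49) and Fdps (-0.71) overlapped.

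In bile acid metabolism, Nr0b2 (Shp), the corepressor that shuts off bile acid synthesis, stood at 7.45, 8.04 and 8.39 and at 9.29 and 9.53, higher by 1.45 ± 0.32 (adjusted p = 0.252). Cyp7b1, an oxysterol hydroxylase of the acidic pathway, stood at 10.74, 10.72 and 11.90 and at 12.79 and 12.37, higher by 1.46 ± 0.41 (adjusted p = 0.379). Vehicle array 3 was the highest vehicle array for both and lay below the CMPF samples. Cyp7a1, the rate-limiting enzyme of the classic pathway, was at -0.49 with overlap, and Cyp8b1, the sterol hydroxylase for cholic acid, was lower by 0.77 ± 0.34 through CMPF arrays 2 and 3 (10.74, 10.51 and 10.62 against 10.56 and 9.14; -0.06 without those arrays). Of the 20 genes of bile acid metabolism 14 had a higher mean, 3 had an unadjusted p under 0.05 upward and 1 downward (median 0.10), beside 53.2%, 5.86% and 2.16% of all genes. Mttp, which loads triglyceride onto apolipoprotein B, stood at 10.15, 10.29 and 10.23 and at 10.64 and 10.73, higher by 0.46 ± 0.10 (adjusted p = 0.252), while the other 18 apolipoprotein and lipoprotein genes had no unadjusted p under 0.05 (list median -0.03); Apob was at 0.17 and Pltp at -0.70 ± 0.44. Of 20 phospholipid and choline genes, Ptdss2, a phosphatidylserine synthase (-0.31 ± 0.11), Lpcat4 (-0.21 ± 0.10) and Bhmt, the betaine methyltransferase (-0.24 ± 0.11), had an unadjusted p under 0.05 downward.

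Glucose genes gave single members rather than a common direction. Of 21 genes of gluconeogenesis and glycogen, Ppp1r3c, which targets protein phosphatase to glycogen, had an unadjusted p under 0.05; it stood at 8.59, 8.57 and 9.10 and at 9.68 and 9.93, higher by 1.05 ± 0.28 (adjusted p = 0.359). Pck1, the gluconeogenic carboxykinase, was higher by 0.63 ± 0.32 (adjusted p = 0.662) without overlap, though another probe set was at -0.04, and G6pc, the glucose phosphatase, was at -0.06. Khk, which phosphorylates fructose, stood at 11.09, 11.13 and 11.26 and at 10.63 and 10.41, lower by 0.64 ± 0.21 (adjusted p = 0.471), while Pfkfb3, an activator of glycolysis, was higher by 0.70 ± 0.23. Among 22 insulin signalling genes 3 had an unadjusted p under 0.05, all upward, beside 5.86% of all genes: the kinase Pdpk1 (7.55, 7.76 and 7.68 against 8.14 and 8.19, 0.50 ± 0.13, adjusted p = 0.327), the adaptor Appl1 (0.54 ± 0.19) and the receptor inhibitor Grb14 (0.87 ± 0.34). Irs1 (0.45) and Irs2 (0.43) overlapped. The list medians were 0.10 for gluconeogenesis and glycogen, -0.11 for 13 genes of glycolysis and sugar entry and 0.06 for insulin signalling.

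Many liver genes are expressed at different levels in males and females under the control of growth hormone pulses, and 2 lists of such genes leaned in opposite directions. Of 16 genes known to be higher in males, 13 had a higher mean with CMPF, 8 had an unadjusted p under 0.05 upward and 0 downward, and at 10 (62.5%) both CMPF samples lay above the vehicle arrays, beside 53.2%, 5.86%, 2.16% and 19.7% of all genes. Of 11 genes known to be higher in females, 10 had a lower mean, 4 had an unadjusted p under 0.05 downward and 0 upward, and at 6 (54.5%, beside 11.1% of all genes) both CMPF samples lay below. The medians were 0.63 and -0.62. In single samples the male-biased list stood at -0.28, -0.07 and 0.34 on the vehicle arrays and at 0.69 and 0.66 in the CMPF samples, and the female-biased list at 0.05, 0.18 and -0.17 and -0.47 and -0.39. The female-biased count of 4 became 1 without vehicle array 2, without CMPF array 1 and without CMPF arrays 2 and 3. The sex of the mice is not given, and a difference in it between arrays was not tested.

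Among the male-biased genes, Hsd3b5, a steroid dehydrogenase, stood at 9.57, 9.77 and 11.14 and at 11.67 and 11.64, higher by 1.50 ± 0.49 (adjusted p = 0.471). Vehicle array 3 lay near the CMPF samples. Ugt2b38, a glucuronosyltransferase, stood at 4.92, 5.22 and 4.92 and at 7.07 and 6.46, higher by 1.75 ± 0.48 (adjusted p = 0.359), and C6, a complement component, stood at 7.94, 7.94 and 7.99 and at 9.53 and 9.06, higher by 1.34 ± 0.31 (adjusted p = 0.252). The vehicle arrays of both agreed closely. Ugt2b1 (0.85 ± 0.23), the uptake transporter Slco1a1 (0.69 ± 0.24), Serpina12 (1.11 ± 0.49) and Nudt7 (0.44 ± 0.19) were the others, with Cyp7b1. Bcl6, a repressor of female-biased genes, was at 1.48 ± 1.09 with overlap, and Elovl3, an elongase, was at -0.23 with overlap. Of the female-biased genes, Hao2, a hydroxyacid oxidase, stood at 6.09, 7.38 and 6.38 and at 5.31 and 4.57, lower by 1.68 ± 0.76 (adjusted p = 0.62), and Fmo2, a flavin monooxygenase, at 7.64, 7.78 and 7.35 and 7.12 and 6.78, lower by 0.64 ± 0.22 (adjusted p = 0.497). Neither overlapped. Cyp2b13 stood at 8.55, 9.94 and 6.77 and at 5.47 and 7.09 (-2.14 ± 0.72, adjusted p = 0.481), overlapping through vehicle array 3; Cyp2b9 (-1.31 ± 0.63) and Cyp2b10 (-0.36 ± 0.16) lay below all vehicle arrays. Transcripts of the Cyp2 and Ugt families are alike enough that their probe sets can cross-hybridise.

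Against chow, which shares the vehicle HFD arrays, both lists are again given only side by side. The median of HFD minus chow was -0.88 for the male-biased and 0.51 for the female-biased genes, with 9 of 16 lower and 4 of 11 higher by adjusted p, beside 3.83% lower and 1.74% higher of all genes. In reversal, which shares no array, CMPF after HFD gave medians of 0.18 and -0.06. There, 2 of 16 male-biased genes had an unadjusted p under 0.05 upward and 0 downward. Of the 11 female-biased genes, 4 had one downward and 0 upward. The shares of all genes were 1.91% upward and 2.88% downward. Cyp2b13 was at -3.54 ± 0.65 and Hao2 at -3.70 ± 0.68, larger in size than before HFD, while Ugt2b38 was at -0.23 ± 0.43 and Fmo2 at 0.26 ± 0.20, of the other sign. The differences between the experiments were 1.40 ± 0.97 (adjusted p = 0.785) for Cyp2b13, 2.02 ± 1.02 (adjusted p = 0.666) for Hao2 and 1.97 ± 0.65 (adjusted p = 0.507) for Ugt2b38.

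**Figure D4:**
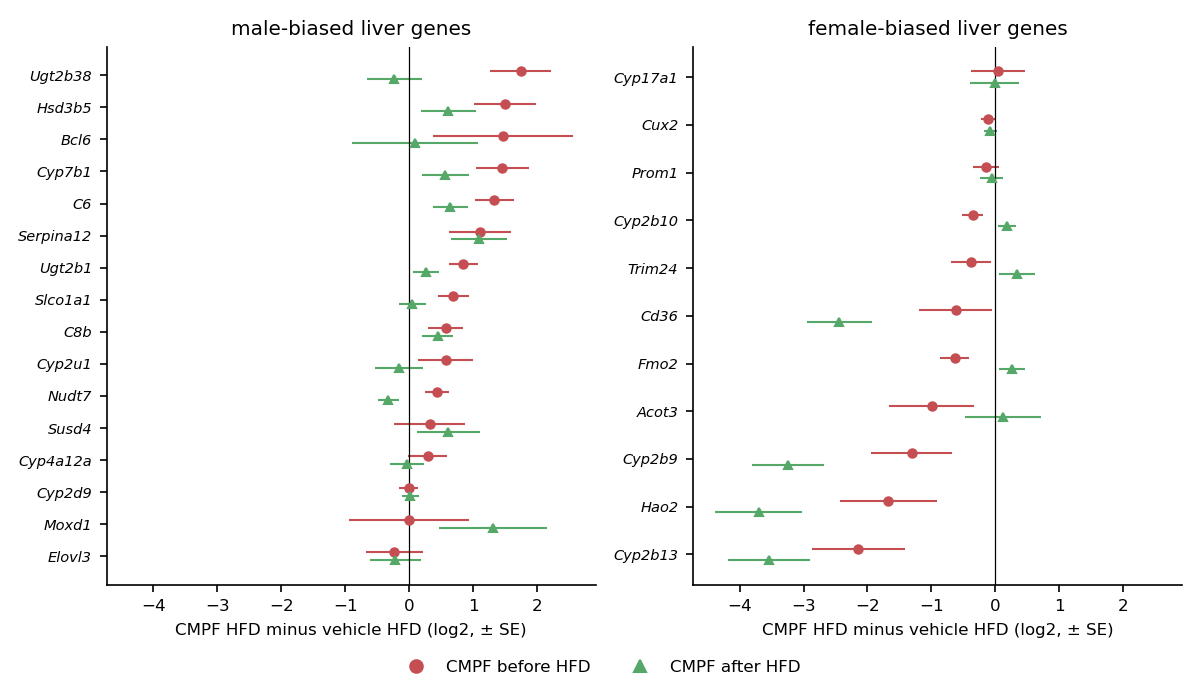
Difference between CMPF and vehicle on HFD (log2, horizontal axis, with its SE as bars) for 16 male-biased (left) and 11 female-biased (right) liver genes, with CMPF before HFD as red points and CMPF after HFD as green triangles. Before HFD, 13 of 16 male-biased genes lie above 0 and 10 of 11 female-biased genes below it; after HFD the values of Cyp2b13 (-3.54), Hao2 (-3.70) and Cyp2b9 lie farther below 0.

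Antioxidant genes controlled by NRF2 included members in both directions. Of 20 tested, 4 had an unadjusted p under 0.05 upward and 2 downward, beside 5.86% and 2.16% of all genes, with a median of -0.01. The glutathione genes Gclc, the rate-limiting ligase (10.08, 10.41 and 10.96 against 11.29 and 11.60, 0.96 ± 0.32, adjusted p = 0.475), and Gsr (0.60 ± 0.27), with the thioredoxin reductase Txnrd1 (0.49 ± 0.16) and Srxn1 (0.68 ± 0.28), were higher. For Srxn1, 1 of 3 probe sets above the filter had this sign (the others were at -0.01 and -0.18), and the difference was 0.17 with probe sets averaged and 0.25 without CMPF arrays 2 and 3. The transferase Gstm3 was lower by 1.45 ± 0.53 with overlap, since vehicle array 3 was low (8.83, 9.24 and 6.80 against 6.59 and 7.09), and the exporter Abcc4 by 0.47 ± 0.22. The 18 xenobiotic genes had a median of -0.02, with none upward and Cyp2b13 and Cyp2b10 downward. Of 13 organic anion transporters, some of which carry molecules such as CMPF, Slco1a1 and Abcg2 (10.39, 10.47 and 10.76 against 11.20 and 11.24, 0.68 ± 0.30) were higher and Abcc4 lower; Slc22a6 was at -0.08, Slc22a7 at -0.13 and Slco1b2 at 0.10, each with overlap. Clock genes had a median of 0.09 over 22, with Rora (0.48 ± 0.14) and Bhlhe40 (0.61 ± 0.24) at an unadjusted p under 0.05, and 19 glucocorticoid targets had one of 0.11, with Hsd11b1, which regenerates the hormone (0.40 ± 0.16), and Klf9 (0.32 ± 0.14). Without CMPF array 1 that median was -0.13.

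Plasma proteins made by hepatocytes and genes of the urea cycle and zonation completed the parenchymal lists. Of 30 complement and coagulation genes 22 had a higher mean with CMPF and 5 had an unadjusted p under 0.05 upward, beside 53.2% and 5.86% of all genes: C6, F5 (10.77, 11.17 and 11.13 against 11.53 and 11.72, 0.60 ± 0.17), F9 (0.44 ± 0.14), F11 (0.47 ± 0.22) and Klkb1 (0.32 ± 0.15). Their median of 0.14 was 0.04 after cyclic loess, with 16 of 30 higher, and the 5 became 3 after cyclic loess, 2 without CMPF array 1 and 3 without arrays 2 and 3. Among 26 acute phase genes, Orm1 was lower by 0.88 ± 0.39 with overlap, and the median was -0.09. Of 19 urea cycle and amino acid genes, Oat (0.52 ± 0.21) and Tdo2, the tryptophan dioxygenase (0.74 ± 0.32), were higher at an unadjusted p under 0.05, and Ass1 was at -0.59 below all vehicle arrays. Of the periportal genes, Cyp2f2 stood at 12.58, 12.43 and 12.34 and at 13.04 and 13.25, higher by 0.70 ± 0.15 (adjusted p = 0.252), and the adhesion molecule Cdh1 was higher by 0.99 ± 0.41. Pericentral genes included Tbx3, a target of Wnt signals (0.88 ± 0.37), Glul (0.18) and the ammonium transporter Rhbg (-0.73). The medians were 0.12 for 11 periportal and 0.15 for 18 pericentral genes, the latter -0.0017 without vehicle array 1. Of 18 cell cycle genes 14 had a lower mean, with Mki67 at -0.61 ± 0.25, and the median was -0.10.

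Genes of immune cells varied as much among the vehicle arrays as between the groups. The 12 Kupffer cell and macrophage markers had a lower mean with CMPF, from -0.78 to -0.20, but none had an unadjusted p under 0.05 and none separated the groups. Their median was 1.14, -0.04 and -1.11 on the vehicle arrays and -1.04 and -0.01 in the CMPF samples, so vehicle array 1 was high and vehicle array 3 and CMPF array 1 were low. C1qa stood at 9.27, 8.30 and 6.90 and at 6.82 and 7.93. The median was 0.02 without vehicle array 1 and -0.01 without CMPF array 1, but -1.06 without vehicle array 3 and -1.04 without CMPF arrays 2 and 3. In whole liver RNA, fewer cells of a type and less RNA per cell cannot be told apart. Of 27 interferon and antigen presentation genes 3 had a higher and 24 a lower mean, beside 53.2% of all genes with a higher mean. None had an unadjusted p under 0.05. Their median of -0.33 came with 0.77, -0.17 and -0.63 on the vehicle arrays. It was 0.10 without vehicle array 1 and -0.58 without vehicle array 3. Of 17 NF-kB and inflammation genes 2 had a higher and 15 a lower mean. An unadjusted p under 0.05 downward was found for 2 of them, beside 2.16% of all genes. These were the ubiquitin editor Tnfaip3 (7.17, 6.07 and 5.70 against 4.98 and 5.50, -1.07 ± 0.47, adjusted p = 0.611) and the chemokine Ccl4 (-0.32 ± 0.12). Without vehicle array 1 the list's median of -0.22 was -0.02.

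The remaining marker lists were short. The medians were -0.37 for 4 monocyte and neutrophil genes, -0.23 for 7 lymphocyte genes, -0.02 for 9 endothelial genes, -0.09 for 10 stellate genes, 0.16 for 5 cholangiocyte genes and 0.07 for 8 hepatocyte genes. Erythroid (-0.16) and adipocyte (-0.36) lists rested on 2 genes each and the pancreas list (-0.12) on 5. An unadjusted p under 0.05 was found downward for the B cell gene Cd79b (-0.42 ± 0.16), the sinusoidal receptor Stab2 (-0.34 ± 0.16), the bile duct keratin Krt19 (-0.29 ± 0.13) and Retn (-0.38 ± 0.16), and upward for none of these markers. Of 18 fibrosis genes none had an unadjusted p under 0.05 (median -0.12); Col1a2 was at -0.46 ± 0.25, below all vehicle arrays, and Col3a1 at -0.51 ± 0.37 with overlap.

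**Figure D5:**
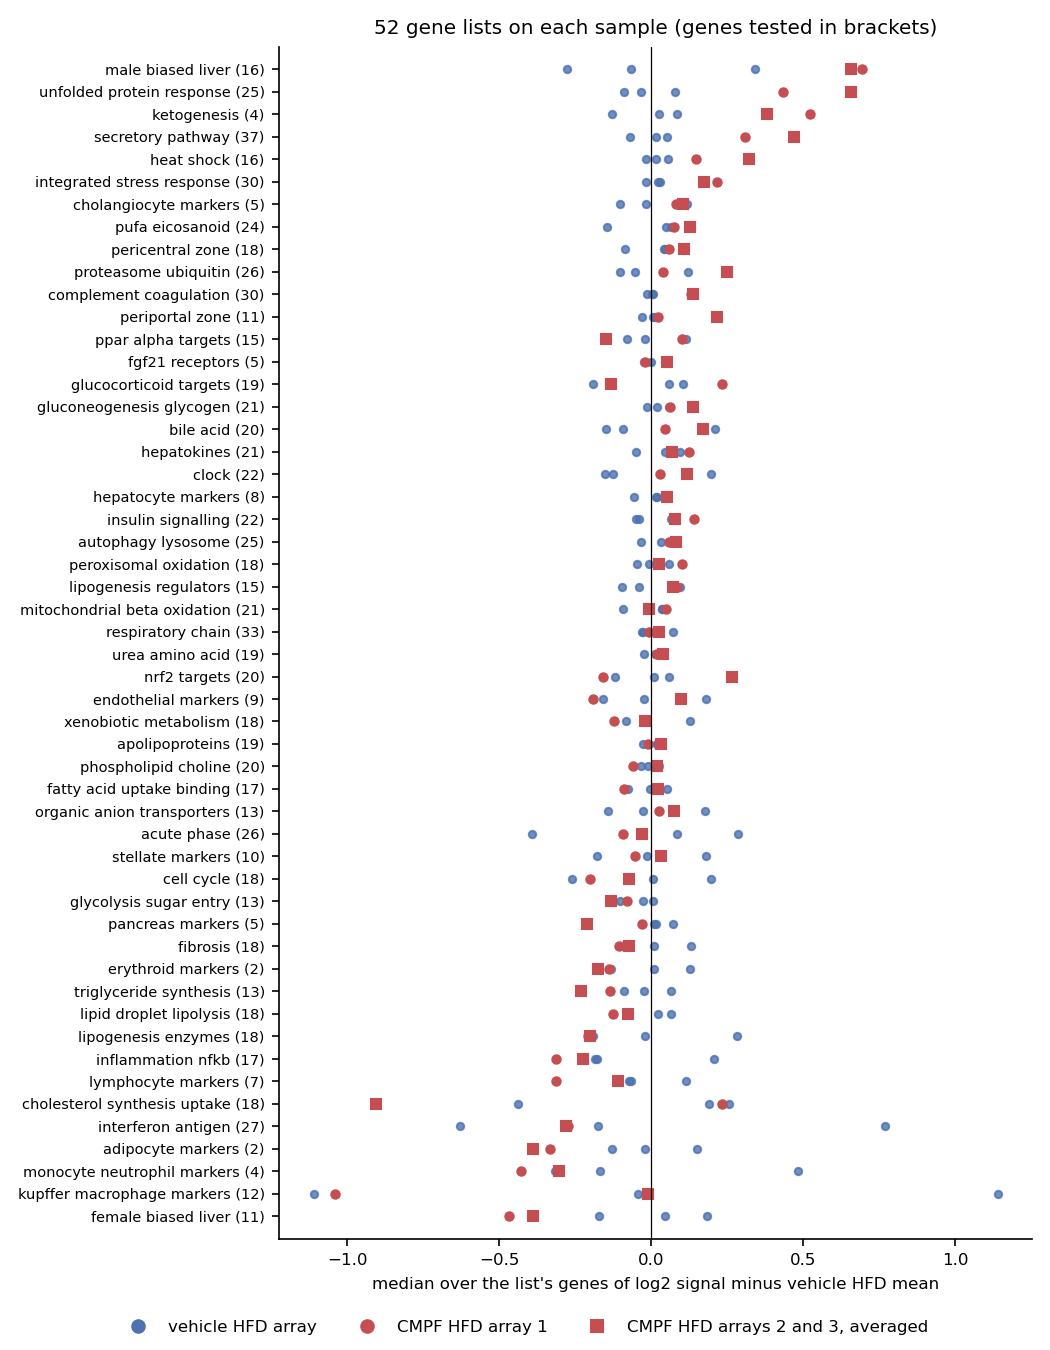
Median over each list's tested genes of the log2 signal minus the vehicle HFD mean (horizontal axis) for 52 lists, with vehicle arrays in blue, CMPF array 1 as a red point and the mean of CMPF arrays 2 and 3 as a red square. The unfolded protein response (0.43 and 0.66), the secretory pathway (0.31 and 0.47) and male-biased genes (0.69 and 0.66) have both red symbols to the right of all blue points. Female-biased genes (-0.47 and -0.39) have them to the left. Other lists are separated as well, such as ketogenesis (0.52 and 0.38) and heat shock (0.15 and 0.32) to the right. Triglyceride synthesis (-0.13 and -0.23) is among those to the left. Kupffer cell markers spread from 1.14 to -1.11 among vehicle arrays alone.

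Whether CMPF given after HFD showed the same values was asked in the reversal arrays, which are separate from those compared here (3 against 3). There, 253 genes were higher and 381 lower with an unadjusted p under 0.05 (1.91% and 2.88%), and 5 passed adjustment (0.0378%): Cyp2c38, Fkbp5, Mogat1, Nt5e and Rhobtb1. Of the 775 genes higher before HFD, 35.61% had a higher mean in reversal, beside 47.46% of all genes, and of the 285 lower ones, 47.37% had a lower mean, beside 52.54%. The difference of the CMPF effect between the experiments passed adjustment for 0 genes and had an unadjusted p under 0.05 for 1048 (7.93%). Fgf21 was at -0.45 ± 0.43 in reversal, a difference between the experiments of 2.49 ± 0.65 (adjusted p = 0.471). Angptl8 was at -0.36 ± 0.48, with a difference of 2.44 ± 0.71 (adjusted p = 0.501). Both hormones thus had means of opposite sign in the experiments, without passing the test of the difference.

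Of the other leading genes, Sntb1 was at -0.40 ± 0.14 in reversal, a difference between the experiments of 1.30 ± 0.21 (adjusted p = 0.262). Atf5 was at -0.07 ± 0.29, with a difference of 1.51 ± 0.44 (adjusted p = 0.501). Elovl2, the elongase, was at -0.29 ± 0.18, with a difference of 1.23 ± 0.27 (adjusted p = 0.319). Tmem120a was at -0.03 ± 0.14, with a difference of -0.9969 ± 0.21 (adjusted p = 0.319). Slc16a1 was at -0.73 ± 0.18, with a difference of 1.54 ± 0.28 (adjusted p = 0.304). Each was near 0 or of the other sign after HFD. Scd1 was at -2.81 ± 0.82 in reversal, and the difference was -0.27 ± 1.23 (adjusted p = 0.969), an SE that does not show the effects to be equal. Mogat1, which passed in reversal at -2.10 ± 0.29, differed by 1.39 ± 0.43 (adjusted p = 0.507). The unfolded protein response had a reversal median of 0.25 with 1 of 25 genes at an unadjusted p under 0.05 upward, and the secretory pathway one of 0.06 with none. Pdia4 was at 0.13 ± 0.30, a difference of 1.08 ± 0.46 (adjusted p = 0.579), and Creld2 at 0.93 ± 0.59, a difference of 0.57 ± 0.89 (adjusted p = 0.918).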

How the data were processed

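Liver RNA (200 ng per array, biotin-labelled cRNA) was measured on Affymetrix mouse arrays. The deposited log2 signals came from RMA in Affymetrix Expression Console 1.1, per the submitters' processing notes (RMA corrects background, quantile-normalizes and summarises probes); which arrays were normalized together is not given in the sources used here. Arrays give no depth, so their number limits the precision.

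Of 45101 probe sets, 64 are controls, 34945 had 1 gene symbol in the probe table, 932 had several and 9160 were not listed; genes were named from the first kind only. Probe sets in the bottom 40% by average signal were removed, and a gene was represented by its brightest remaining probe set, leaving 13221 of 18193 genes; 1520 of these probe sets end in _s_at or _x_at and can cross-hybridise. CMPF arrays 2 and 3 were averaged: over 2057 bright genes their difference had an SD of 0.0911, against at least 0.271 in the other 152 pairs of arrays. With limma 3.58.1 in R 4.3.3, 1 model of 6 group means was fitted to 17 samples (11 residual and 3.02 prior degrees of freedom), and p was adjusted by Benjamini-Hochberg over all genes, threshold 0.05. The pipeline was tested on simulated data.

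The comparison and its 52 gene lists were chosen with earlier results of these data known, so list counts are descriptions. Genes were named by rule: the 10 per direction with the smallest p, the 8 per direction with the largest difference at an unadjusted p under 0.05 without overlap, 10 fixed genes (Cd36, Pparg, Ppara, Cpt1a, Scd1, Acacb, Acaca, Fasn, Srebf1 and Fgf21), and the 2 or 4 list members with the smallest p. Other list members were named after their values were seen. Tissue, group and replicate came from the sample titles. The 20 alternatives changed the samples fitted, the scaling, the filter, the probe set, the RNA index as a covariate, the moderation and each sample in turn. Promoters are RefSeq's.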

Additional observations from a re-analysis of the deposited data

How the results depend on the processing

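The count of genes passing adjustment was 0 as reported. It was 36 (31 higher, 5 lower) with all 18 arrays counted as samples, 1 after another quantile normalization, 1 after cyclic loess, and 0 to 1 with samples left out in turn. Of the genes named under the rule, 23 were among the 36, including Capn7, Sntb1, Tmem120a, Atf5, Elovl2, Nr0b2, Mttp, Inhbc, Copa and Cyp2f2. With a replicate block on all 18 arrays the count was 0, with 1175 higher and 477 lower genes at an unadjusted p under 0.05. Without the block, all 18 arrays gave 1163 and 507. Same-numbered vehicle and CMPF arrays had correlations of -0.166, 0.184 and -0.184 in their deviations from the group means. Arrays of unlike number ran from -0.330 to 0.339. These values gave no sign of a pairing by replicate number. With 3 arrays a group, of which CMPF arrays 2 and 3 were nearly identical, they cannot exclude a pairing. The 775 higher genes became 1214 in a fit on the 5 samples alone, 1216 with the RNA index as a covariate, 515 after cyclic loess and 354 to 701 with samples left out. The 285 lower genes became 495 without the low-signal filter, 151 with the lowest 60% dropped and 248 to 416 with a vehicle array left out. The RNA index difference (0.111 as reported) was -0.033 with beta-actin alone and ran from -0.0902 without CMPF array 1 to 0.313 without CMPF arrays 2 and 3.

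Of 211 named genes, 14 changed sign somewhere, and only under the settings given here. With a sample left out, the differences ran from -0.729 to 0.0489 for Fasn, from -0.329 to 0.005 for Acaca, from -0.299 to 0.0351 for Ppara, from -0.151 to 0.503 for Slc16a6, from -0.102 to 0.327 for Fgfr2, from -1.30 to 0.0972 for Lyve1 and from -0.229 to 0.0434 for Alas2. With probe sets averaged per gene, Ppara was at 0.0436, Rxra at -0.0252 and Epcam at -0.0295. With the probe set of largest interquartile range, Ppara was at 0.226, Acot2 at 0.151, Fgfr3 at 0.0448, Pck1 at -0.043, Ern1 at -0.0541 and Sec24a at -0.132. The cause of these changes was not tested beyond the choice of sample or probe set itself. With 2 samples against 3, of which 1 is a mean of near-identical arrays, precision is limited by the number of arrays.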
